A study of Mus musculus with 2 samples.

Results

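The cell cycle genes of S phase and of G2/M were followed in single CD11b-selected cells from implanted and non-implanted mouse cochleae. The members were 39 protein-coding genes chosen by symbol, of 48709 gene rows in the deposited count matrices: 14 genes of DNA replication, called S phase members here, and 25 genes of the G2 phase and of mitosis, called G2/M members. All 39 had 1 row each in the matrices and UMIs (unique molecular identifiers, 1 per captured RNA molecule) in both libraries. There was 1 library of implanted cochleae, treatment "Electrode implanted", and 1 library of non-implanted cochleae, treatment "Non-implanted". Both came from mice of strain C57BL/6J/B6 and genotype CX3CR1+/GFP Thy1+/YFP, with males and females pooled. Cx3cr1 is a chemokine receptor gene of monocytes and macrophages, and that locus carries the GFP reporter in both groups. Per the series text, day 33 after electrode placement was sampled. The labels do not give the age of the mice, how many animals were pooled, whether the non-implanted cochleae were the opposite ears, or whether the electrode released a drug, and the dissection protocol in the labels describes other ages and another tissue than the series text.

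A dividing cell copies its DNA in S phase and separates the copies in mitosis, with the G2 phase between them. The genes for these steps are transcribed in waves: those for replication forks and nucleotide supply before and during S phase, under E2F factors, and those for the spindle, the kinetochores and cell division later, under complexes that bind promoter elements called CHR (cell cycle genes homology region) and CCAAT boxes (bound by NF-Y). In the neutrophil lineage, promyelocytes and myelocytes divide, and division stops before the cells become band and segmented neutrophils, so transcripts of these genes mark the early stages. Tissue macrophages are known to renew themselves by division in many tissues, and monocytes divide mainly as precursors in the bone marrow.

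The promoters of the members carried different letters in the S phase and the G2/M genes. RefSeq promoter windows, from 250 bases before to 50 bases after the gene start on build GRCm38.p6, were found for 32 of the 39 members and came to 35 windows, since Mcm7, Uhrf1 and Prc1 have 2 each. Mcm4, Gins2, Stmn1, Ccna2, Aurkb, Kif20a and Tpx2 had none. The windows were searched on both strands for TTTNNCGC (E2F type), TTTGAA (CHR type) and CCAAT (NF-Y type), where N is any base. TTTNNCGC stood in 8 of 14 S phase windows (57.1%) and in 1 of 21 G2/M windows (4.76%), against 5.17% of all 32851 windows. TTTGAA stood in 1 of 14 S phase windows (7.14%) and in 17 of 21 G2/M windows (81.0%), against 17.9% of all windows. CCAAT stood in 11 of 14 (78.6%) and 19 of 21 windows (90.5%), against 37.4% of all windows. Windows of the same gene overlap or share a source, and the matches are descriptions, not binding sites.

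The windows of 4 members are shown because the results turn on these genes. Mcm6 (a subunit of the MCM helicase) and Ube2c (the ubiquitin-conjugating enzyme of the anaphase-promoting complex) lay near the S and the G2/M ends of the members, Cdk1 (the kinase that starts mitosis) was the G2/M member with the E2F-type letters, and Kif23 (a kinesin of the spindle midzone and the cleavage furrow) was the 1 member higher in neutrophil-like than in late precursor-like cells in both libraries. Capitals mark the letters of the 3 motifs on either strand, runs of capitals longer than a motif are overlapping matches, and each sequence is written in the direction of its gene. The windows are chr1:128359656-128359955 (minus strand) for Mcm6, chr10:69352863-69353162 (minus strand) for Cdk1, chr2:164769679-164769978 (plus strand) for Ube2c and chr9:61946750-61947049 (minus strand) for Kif23.
Mcm6: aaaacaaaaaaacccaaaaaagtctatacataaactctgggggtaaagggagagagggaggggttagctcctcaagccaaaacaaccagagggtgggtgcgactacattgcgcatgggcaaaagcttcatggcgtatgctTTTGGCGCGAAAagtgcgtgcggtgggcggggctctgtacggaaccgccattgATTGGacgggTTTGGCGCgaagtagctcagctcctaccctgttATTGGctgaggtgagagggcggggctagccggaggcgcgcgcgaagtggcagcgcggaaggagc
Cdk1: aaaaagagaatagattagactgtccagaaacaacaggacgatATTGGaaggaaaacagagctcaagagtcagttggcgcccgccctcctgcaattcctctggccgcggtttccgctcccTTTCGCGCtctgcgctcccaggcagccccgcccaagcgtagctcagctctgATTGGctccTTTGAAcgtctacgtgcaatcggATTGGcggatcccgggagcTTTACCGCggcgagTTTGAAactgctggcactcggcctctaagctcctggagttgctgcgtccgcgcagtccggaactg
Ube2c: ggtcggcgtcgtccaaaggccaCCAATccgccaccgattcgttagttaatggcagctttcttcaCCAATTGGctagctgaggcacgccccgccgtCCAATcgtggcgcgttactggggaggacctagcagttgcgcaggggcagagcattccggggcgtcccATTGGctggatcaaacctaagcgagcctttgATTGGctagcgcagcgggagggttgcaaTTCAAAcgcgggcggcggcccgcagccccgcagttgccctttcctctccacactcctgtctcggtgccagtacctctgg
Kif23: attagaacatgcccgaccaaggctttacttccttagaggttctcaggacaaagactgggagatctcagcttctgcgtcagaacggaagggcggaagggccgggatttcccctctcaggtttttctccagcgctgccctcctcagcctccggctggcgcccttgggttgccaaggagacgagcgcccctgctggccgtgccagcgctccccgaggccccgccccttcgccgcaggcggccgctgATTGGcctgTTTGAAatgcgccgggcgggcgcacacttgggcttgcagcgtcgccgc

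The Mcm6 window held TTTNNCGC 3 times, of which 2 overlap, and CCAAT 2 times. The Cdk1 window held TTTNNCGC 2 times, TTTGAA 2 times and CCAAT 3 times. The Ube2c window held CCAAT 6 times and TTTGAA 1 time, and the Kif23 window held CCAAT and TTTGAA 1 time each. Among the S phase members, Mcm2 had the 1 window with TTTGAA. Birc5, Bub1, Ccnb1 and Nusap1 were the G2/M members whose windows held no TTTGAA.

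With a filter of at least 200 genes and at most 10% mitochondrial UMIs per cell, 3149 implanted and 3513 non-implanted cells were kept, with medians of 4371 and 4238 UMIs, and 6 cell barcodes occurred in both libraries. Clustering without the members and other cell cycle and histone genes gave 25 clusters, named "-like" from marker genes: 4 classes had at least 100 cells in each library, namely granulocyte precursor-like (975 and 1100 cells), neutrophil-like (1347 and 1699), monocyte-like (328 and 286) and macrophage-like (259 and 197). All 18 precursor markers and all 20 neutrophil markers were detected in at least 5% of the cells of their class, as were 18 of 19 monocyte markers and 18 of 20 macrophage markers. Irf8, a monocyte marker, had 0 UMIs in the 2 libraries, and so had Itgam, which encodes CD11b, so the selected protein could not be checked at the RNA level. Rag1 and Igkc were also listed at 0 in both libraries, and whether such zeros arise in the counting was not tested. Ptprc, the pan-leukocyte gene, was detected in 90.3% of implanted and 93.3% of non-implanted cells. Of the members 18 overlap another annotated gene, several of them, such as Mki67 and Ube2c, only on the opposite strand. Reads shared with a gene on the same strand cannot be told apart in these counts. How the counting treated the opposite strand was not checked. With 1 library per group no test was possible and no p-value is given. All 95% intervals cover counting error only: they take UMIs or cells as independent, do not include the spread between animals and libraries, and understate the error of a class in which a handful of cells holds most UMIs.

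Most transcripts of the members lay in few classes. Of all member UMIs, granulocyte precursor-like cells held 65.2% (implanted) and 67.9% (non-implanted). They made 31.0% and 31.3% of the cells and held 46.2% and 49.4% of the UMIs of all genes. Erythroid-like cells, 78 and 41 in number, held 23.1% and 14.6% of the member UMIs, against 4.10% and 2.44% of all UMIs. Neutrophil-like cells made 42.8% and 48.4% of the cells and held 0.805% and 1.09% of the member UMIs, against 21.3% and 24.7% of all UMIs.

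**Figure D1:**
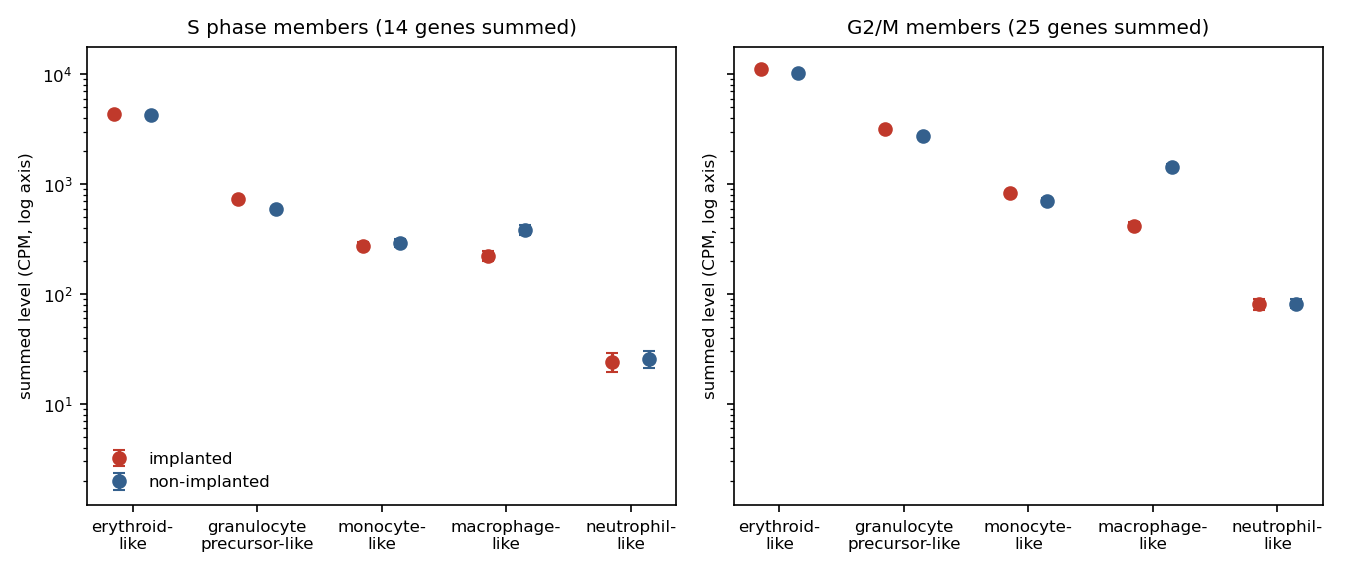
Summed level of the 14 S phase members (left) and the 25 G2/M members (right) in CPM (log axis) in 5 classes, implanted in red and non-implanted in blue, with exact Poisson 95% intervals (hidden by the points where narrow). The order of the classes is alike in both libraries except for the macrophage-like class, whose G2/M level is 419 CPM implanted and 1444 CPM non-implanted.

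In the granulocyte precursor-like class the members summed to a slightly higher level in the implanted library. The S phase members had 736 CPM (counts per 1e+06 UMIs of the class; interval 718 to 754) in implanted and 599 CPM (585 to 614) in non-implanted cells, a ratio of 1.23 (1.19 to 1.27). The G2/M members had 3164 CPM (3127 to 3201) in implanted and 2738 CPM (2706 to 2770) in non-implanted cells, a ratio of 1.16 (1.14 to 1.17). None of the 39 members passed a 1.5-fold difference in either direction on the log2 scale of CPM plus 5, where 0.828% of all 11346 genes tested were higher and 0.167% lower. The median log2 ratio was 0.21 over the members and 0.05 over all genes tested. Of the 39 members 37 lay above 0, where 7090 of all 11346 genes tested did so too. The exceptions were Ccnb2 at -0.01 and Cdc20 at -0.03.

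The members with the most UMIs make up much of these sums and are given one by one. Rrm2, the regulated subunit of ribonucleotide reductase, had 168 CPM in implanted and 137 CPM in non-implanted precursor-like cells, a ratio of 1.22 (1.14 to 1.31). Its partner subunit Rrm1 had 76.5 and 65.7 CPM, a ratio of 1.16 (1.05 to 1.30), and Tyms, thymidylate synthase, had 68.5 and 58.1 CPM, a ratio of 1.18 (1.05 to 1.32). Their counting intervals excluded a ratio of 1 but none reached 1.5. Among G2/M members, Stmn1, which encodes a microtubule-destabilising protein, had 472 CPM in implanted and 406 CPM in non-implanted cells. Mki67, the source of the Ki-67 antigen that coats mitotic chromosomes, had 332 and 284 CPM. Ube2c had 323 and 280 CPM, and Top2a, the topoisomerase that untangles sister chromatids, had 264 and 231 CPM. Birc5, the survivin subunit of the chromosomal passenger complex, had 197 and 171 CPM. The highest log2 ratios in this class were 0.43 for Tk1 (thymidine kinase), 0.42 for Mcm3, 0.39 for Cdk1, 0.37 for Mcm7 and 0.37 for Prc1, which bundles midzone microtubules.

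The members' levels differed between the precursor-like clusters, which are given here by their granule genes. Cluster 18, led by the primary granule genes Elane, Mpo and Prtn3, had 14475 CPM of Elane in implanted and 15615 CPM in non-implanted cells. Cluster 16 carried Fcnb and Ms4a3 with less Elane (1577 and 1489 CPM), cluster 4 carried Fcnb and Chil3 with 40.2 and 56.8 CPM of Elane, and clusters 2 and 7 carried Ltf, a gene of secondary granules, at 12200 and 12221 CPM and at 11163 and 10414 CPM. The summed S phase level was 1760 CPM in implanted and 1505 CPM in non-implanted cells of cluster 18, 1577 and 1295 CPM in cluster 16, and 1017 and 968 CPM in cluster 4. It was 61.2 and 67.5 CPM in cluster 2 and 38.9 and 68.1 CPM in cluster 7. The S phase level thus was highest in the Elane cluster in both libraries. The G2/M level had another order, with 3867 CPM in implanted and 4098 CPM in non-implanted cells of cluster 18, 4634 and 4152 CPM in cluster 16, 5448 and 4845 CPM in cluster 4, 482 and 507 CPM in cluster 2, and 211 and 313 CPM in cluster 7. It was highest in cluster 4, which comes after clusters 18 and 16 by its granule genes. The direction of the class sums did not hold in every cluster. In implanted cells the S phase level was lower in clusters 2 and 7, and the G2/M level in clusters 18, 2 and 7. Cluster 4 was led in part by cell cycle genes outside the lists (2810417H13Rik, Casc5, Cit).

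Cells were called cycling from an equal number of UMIs. Each cell was thinned to 2000 UMIs, cells with fewer were left out, and a cell with at least 3 UMIs over the 39 members was called cycling. By this rule 393 of 957 implanted precursor-like cells (41.1%, interval 37.9 to 44.3) and 419 of 1086 non-implanted ones (38.6%, 35.7 to 41.6) were cycling, a difference of 2.48 points (-1.76 to 6.73). Without thinning the shares were 45.4% and 43.5%, and with finer clusters the difference was -2.04 points. In the neutrophil-like class 4 of 1045 implanted (0.383%, 0.104 to 0.977) and 7 of 1333 non-implanted cells (0.525%, 0.211 to 1.08) met the rule. Without thinning 1.26% and 1.29% did, at median depths of 2840 and 2853 UMIs, against 7740 and 7910 UMIs in precursor-like cells. The neutrophil-like shares with Kif23 left out of the call are given below.

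Within the precursor-like class the calls split the clusters almost completely. Some cell cycle genes outside the lists, such as 2810417H13Rik, a leading gene of clusters 4 and 16, were not left out of the clustering. The split is therefore not independent of how the clusters were formed. All 55 implanted and all 43 non-implanted cells of cluster 16 were cycling, as were 42 of 43 and 31 of 31 cells of cluster 18, and 258 of 275 (93.8%) and 291 of 311 (93.6%) of cluster 4. In cluster 2 the share was 8.04% in implanted and 8.26% in non-implanted cells, and in cluster 7 it was 3.79% and 5.30%. Few cells lay near the threshold: 20 implanted and 22 non-implanted precursor-like cells held exactly 2 member UMIs, while 221 and 188 held 12 or more.

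**Figure D2:**
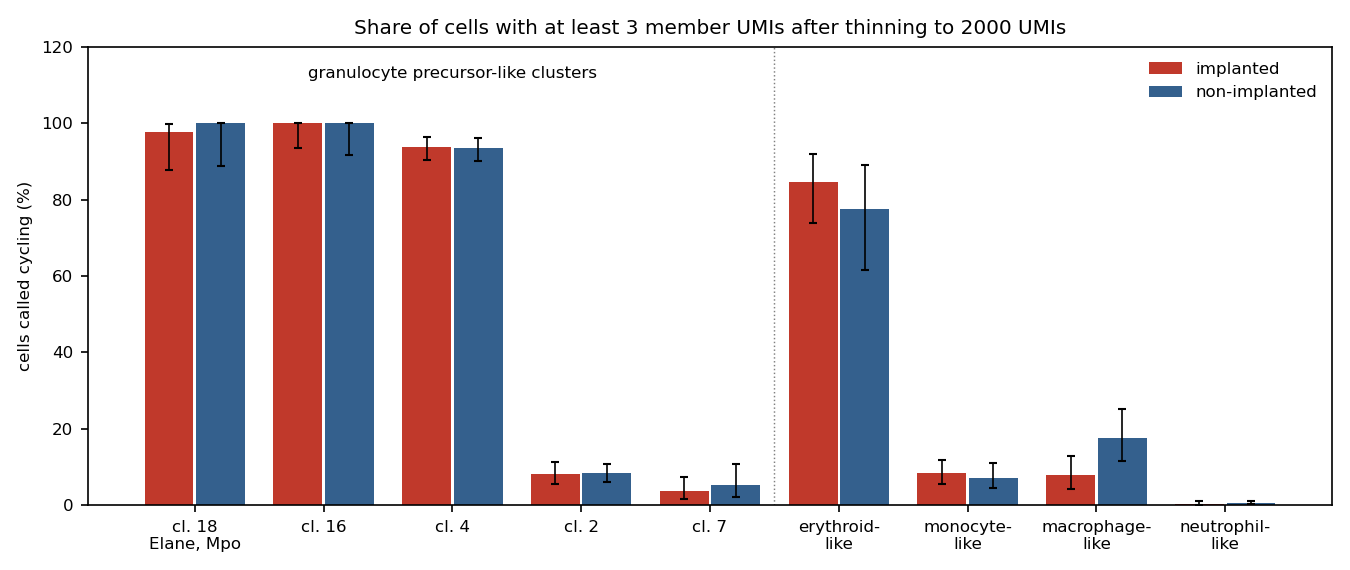
Share of cells called cycling (at least 3 member UMIs after thinning to 2000 UMIs, in %) in the 5 precursor-like clusters, ordered by granule genes, and in 4 further classes. Bars are shares in the implanted (red) and non-implanted (blue) library with exact binomial 95% intervals. Clusters 18, 16 and 4 lie above 90% in both libraries, clusters 2 and 7 below 10%, and neutrophil-like cells below 1%.

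The libraries also differed in the kind of cycling precursor-like cell. A cell with at least 2 S phase and at least 2 G2/M UMIs was called both type, one with fewer than 2 S phase UMIs G2/M type, and one with fewer than 2 G2/M UMIs S type. Both-type cells were 220 of 393 cycling cells in the implanted (56.0%, 50.9 to 61.0) and 191 of 419 in the non-implanted library (45.6%, 40.7 to 50.5), a difference of 10.4 points (3.51 to 17.1). G2/M-type cells were 42.7% and 52.3%, and S-type cells were 5 and 9 cells. Both-type cells were also the larger share in the implanted library within each cycling cluster, with 76.2% and 58.1% in cluster 18, 85.5% and 65.1% in cluster 16, and 52.7% and 47.8% in cluster 4. Only the interval of the difference in cluster 16 excluded 0 (20.3 points, 3.30 to 36.8). After thinning, a cycling cell held on average 2.39 S phase and 10.2 G2/M UMIs in implanted cells and 1.98 and 9.26 in non-implanted cells, so the type of a cell rests on few S phase UMIs. The ratio of S phase to G2/M UMIs over the class was 0.232 (0.226 to 0.239) in implanted and 0.219 (0.213 to 0.225) in non-implanted cells.

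The members differed in how far they followed their listed phase. For each member, precursor-like cells with at least 10 UMIs of the other members were split, without thinning, into S-rich cells (at least 50% of these UMIs from S phase members) and G2/M-rich cells (under 10%). The member's own UMIs were left out of the split, which put 35 to 54 implanted and 37 to 72 non-implanted cells on the S-rich side. All 14 S phase members were higher in S-rich cells in both libraries. The share of all genes higher or lower between S-rich and G2/M-rich cells was not computed. The count therefore cannot be read as particular to the members. Cdc6, which loads the helicase onto replication origins, had 66.7 CPM in S-rich and 2.34 CPM in G2/M-rich implanted cells, and 90.1 and 3.19 CPM in non-implanted cells. Mcm6 had 184 and 11.2 CPM in implanted and 176 and 16.2 CPM in non-implanted cells, and Mcm2 had log2 ratios (CPM plus 5) of 3.48 and 3.30. The other MCM subunits lay between 2.10 and 2.97. Pcna, with 2.71 and 2.46, lay within the range of these subunits.

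The nucleotide genes lay nearer to the middle. Rrm1 was 1.65-fold higher in S-rich than in G2/M-rich implanted cells and 1.89-fold in non-implanted cells, and Rrm2 1.65-fold and 1.53-fold. Tyms was 3.29-fold and 2.40-fold higher, and Tk1 2.88-fold and 2.64-fold. Uhrf1, which recruits the maintenance DNA methyltransferase to new DNA, was 4.66-fold and 4.51-fold higher, and Pcna, the sliding clamp of the polymerases, 8.47-fold and 7.43-fold. Pcna counts may be split with a near-identical pseudogene row, Pcna-ps2, which held 225 implanted and 201 non-implanted UMIs beside 618 and 654 of Pcna.

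On the G2/M side 24 of 25 members were lower in S-rich cells in both libraries. Here too the share of all genes was not computed, so the count cannot be read as particular to the members. Ube2c had 20.7 CPM in S-rich and 890 CPM in G2/M-rich implanted cells, and 20.6 and 757 CPM in non-implanted cells. Cenpf, a kinetochore protein, had log2 ratios of -4.42 and -4.96. Plk1, Ccnb1, Aurka, Cdc20 and Nusap1, which act from mitotic entry to the spindle and its checkpoint target, lay between -3.02 and -3.88 in both libraries. Cdk1 (-0.86 and -0.98) and Mki67 (-1.29 and -1.12) were closest to 0 among the G2/M members below it in both libraries, and Top2a had -1.37 and -1.52. Stmn1 was the exception: it had 612 CPM in S-rich and 539 CPM in G2/M-rich implanted cells, a ratio of 1.13, and 647 and 467 CPM in non-implanted cells, a ratio of 1.39.

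**Figure D3:**
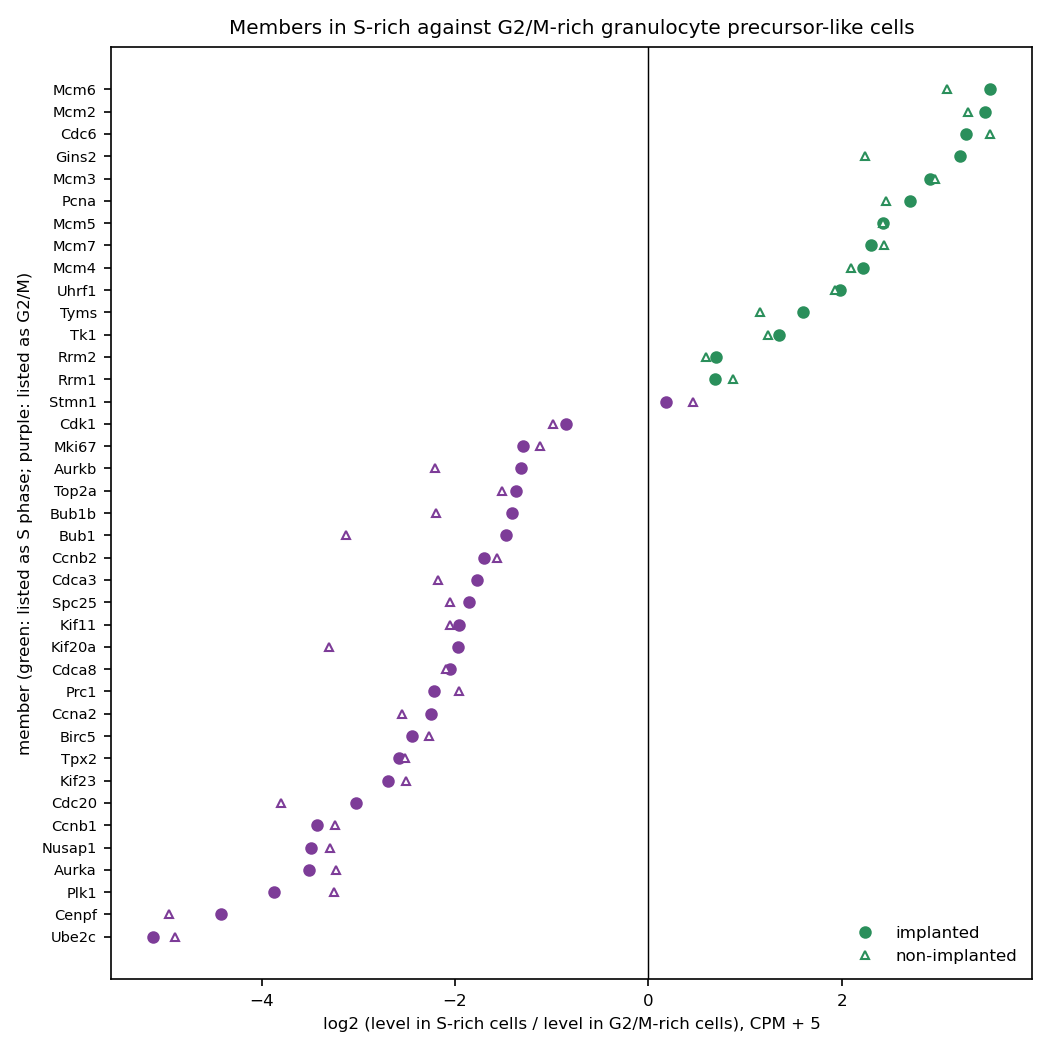
Log2 ratio of each member's level (CPM plus 5) in S-rich over G2/M-rich granulocyte precursor-like cells, with the member's own UMIs left out of the split. Filled circles are the implanted and open triangles the non-implanted library; green genes are listed as S phase and purple ones as G2/M. All green genes and Stmn1 lie right of 0, and Ube2c and Cenpf lie farthest left.

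Erythroid-like cells had the highest member levels of the classes, with 78 implanted and 41 non-implanted cells, too few for a comparison gene by gene. The S phase members summed to 4330 CPM in implanted and 4231 CPM in non-implanted cells and the G2/M members to 11213 and 10251 CPM. Rrm2 had 839 and 790 CPM, Mki67 2492 and 2180 CPM and Ube2c 1019 and 893 CPM. Of the thinned cells 84.5% (74.0 to 92.0) and 77.5% (61.5 to 89.2) were cycling, a difference of 7.01 points (-7.38 to 23.4). Both-type cells made 53 of 60 implanted and 29 of 31 non-implanted cycling cells. Among the smaller classes, 4 of 12 implanted and 17 of 32 non-implanted osteoclast-like cells and 6 of 36 and 3 of 29 B cell-like cells were cycling. In the B cell-like class 5 cells held 97.99% of all G2/M UMIs (implanted) and 98.3% (non-implanted).

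In neutrophil-like cells the members were near their floor, apart from Kif23. The S phase members summed to 23.9 CPM in implanted and 25.4 CPM in non-implanted cells and the G2/M members to 80.3 and 81.3 CPM, with ratios of 0.94 (0.72 to 1.23) and 0.99 (0.85 to 1.14). Of the 10 members with at least 20 UMIs none passed 1.5-fold in either direction, where 1.3% of all 8717 genes tested were higher and 0.528% lower. With at most 5% mitochondrial UMIs the log2 ratios of the sums were 0.31 for S phase and 0.22 for G2/M members, against -0.09 and -0.02 here. Pcna had 28 UMIs in implanted and 64 UMIs in non-implanted cells (6.76 and 12.05 CPM), Mcm4 had 4.10 and 4.33 CPM, and Stmn1 had 7.72 and 5.83 CPM. Kif23 had 33.8 CPM (28.4 to 39.9) in implanted and 38.6 CPM (33.5 to 44.2) in non-implanted cells, from 140 UMIs in 113 cells and 205 UMIs in 165 cells. It made 32.4% of the member UMIs of implanted and 36.2% of those of non-implanted neutrophil-like cells, against 1.79% and 1.77% in precursor-like cells. Such a Kif23 level was not particular to neutrophil-like cells. Dendritic cell-like cells had 37.6 CPM in implanted (12 UMIs in 7 cells) and 34.7 CPM in non-implanted cells (17 UMIs in 8 cells). Monocyte-like cells had 32.4 and 24.8 CPM, and macrophage-like cells 12.3 and 46.5 CPM.

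Kif23 was compared with the precursor-like clusters 2 and 7, where few cells were cycling. In neutrophil-like over these late precursor-like cells its ratio was 2.22 (1.62 to 3.09) in implanted cells and 2.40 (1.84 to 3.15) in non-implanted cells. Of the other 38 members, 37 were lower in neutrophil-like cells in both libraries, and Pcna had ratios of 0.96 and 1.31. The share of all genes lower or higher in this comparison was not computed. These counts therefore cannot be read as particular to the members. The pattern was noticed in these data, so these values describe it and do not test it. By cluster, Kif23 had 118 CPM in implanted and 102 CPM in non-implanted cells of the cycling cluster 4, 17.5 and 15.8 CPM in cluster 2, and 16.6 and 15.3 CPM in the neutrophil-like cluster 6. It had 59.9 and 64.7 CPM in cluster 1, led by Ifitm1, Csf3r and Il1b, and 57.1 and 68.0 CPM in cluster 5, led by Acod1, Cxcl2 and Ccrl2, where Mki67 had 4.76 and 9.27 CPM. No 1 cell held more than 2.86% of the Kif23 UMIs of neutrophil-like cells. After thinning to 2000 UMIs, 10.3% of implanted and 11.9% of non-implanted cells of cluster 5 held a Kif23 UMI, and in cluster 1 the share was 4.87% (2.45 to 8.54) in implanted cells and 9.95% (7.20 to 13.3) in non-implanted ones, against 2.41% (1.11 to 4.53) and 2.11% (1.09 to 3.65) in cluster 2. The intervals of clusters 1 and 2 overlap in implanted cells and not in non-implanted cells. The gene lies at chr9:61915905-61946774 on the minus strand of GRCm38 and overlapped no other gene in GENCODE M21. The deposited rows do not tell exonic from intronic reads. With Kif23 left out of the call, a choice made after seeing the data, 0 of 1045 implanted neutrophil-like cells (up to 0.352% by the exact interval) and 3 of 1333 non-implanted ones (0.225%) were cycling.

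**Figure D4:**
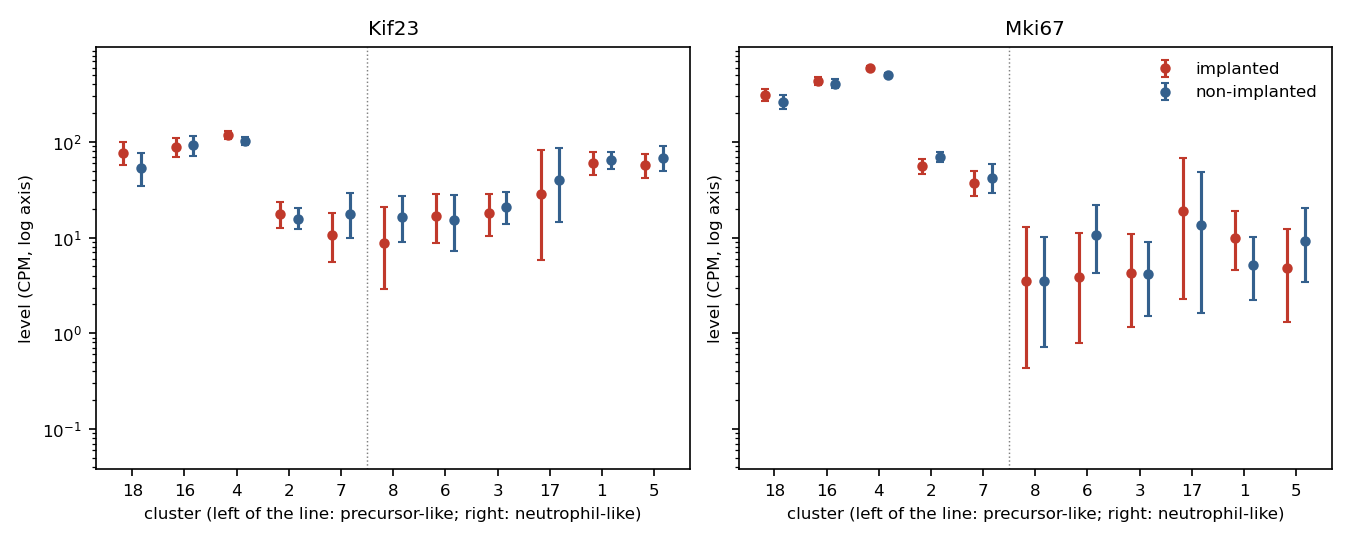
Level of Kif23 (left) and Mki67 (right) in CPM on a log axis in the granulocytic clusters, precursor-like left of the dotted line and neutrophil-like right of it, implanted in red and non-implanted in blue, with exact Poisson 95% intervals. Mki67 stays below 20 CPM in all neutrophil-like clusters, while Kif23 reaches 57.1 to 68.0 CPM in clusters 1 and 5 in both libraries.

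In monocyte-like cells the G2/M sum was higher in the implanted library, and the interval of the S phase ratio included 1. The S phase members summed to 276 CPM in implanted and 292 CPM in non-implanted cells, a ratio of 0.94 (0.85 to 1.06), and the G2/M members to 832 and 708 CPM, a ratio of 1.18 (1.10 to 1.26). The cycling shares were 26 of 314 implanted cells (8.28%, 5.48 to 11.9) and 20 of 278 non-implanted cells (7.19%, 4.45 to 10.9), a difference of 1.09 points (-3.38 to 5.44). Of 39 members tested 2 were past 1.5-fold higher and none past 1.5-fold lower, where 2.59% of all 9929 genes tested were higher and 1.94% lower. These were Mki67, with 117 CPM in implanted and 75.4 CPM in non-implanted cells (log2 ratio 0.60), and Ccna2, the cyclin of late S and G2 phase, with 26.7 and 15.3 CPM (log2 ratio 0.64).

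The other leading members of this class stayed within that fold. Stmn1 had 120 CPM in implanted and 130 CPM in non-implanted cells, Ube2c 74.3 and 50.6 CPM, Top2a 62.8 and 53.9 CPM and Birc5 51.3 and 45.3 CPM. Pcna had 32.8 and 46.7 CPM, Rrm2 30.0 and 40.5 CPM, and Mcm3 27.5 and 28.6 CPM. Few cells held the counts, since 5 cells made up 44.8% of the implanted G2/M UMIs and 47.6% of the non-implanted ones. Cluster 14, led by Adgre4, Pparg and Ace, had 9 of 46 cycling cells in each library, and 11.1% of its cells were marked as likely doublets. With the same weight for every cell 5 members were past 1.5-fold higher and none lower, where 3.48% of all 9929 genes tested were higher and 2.8% lower, and with a pseudocount of 20 CPM none.

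In macrophage-like cells the members were lower in the implanted library, and the G2/M members by more than the S phase members. The S phase members summed to 221 CPM (199 to 245) in implanted and 383 CPM (348 to 421) in non-implanted cells, a ratio of 0.58 (0.50 to 0.66). The G2/M members summed to 419 CPM (388 to 451) in implanted and 1444 CPM (1375 to 1516) in non-implanted cells, a ratio of 0.29 (0.26 to 0.32). The ratio of S phase to G2/M UMIs was 0.528 (0.463 to 0.601) in implanted and 0.265 (0.238 to 0.295) in non-implanted cells. Cycling cells were 13 of 168 implanted (7.74%, 4.18 to 12.9) and 24 of 136 non-implanted cells (17.6%, 11.6 to 25.1), a difference of -9.91 points (-17.8 to -2.45). Without thinning the shares were 25.1% and 27.4%, a difference of -2.31 points (-10.5 to 5.73), and 91 implanted and 61 non-implanted cells were under the thinning depth.

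Of 38 members tested in macrophage-like cells 32 were past 1.5-fold lower and none past 1.5-fold higher, where 8.59% of all 9350 genes tested were lower and 11.7% higher. These were 7 of 13 S phase members and 25 of 25 G2/M members, and the median log2 ratio was -1.26 over the members and 0.03 over all genes tested. The S phase members past the fold were Rrm2 (18.4 CPM in implanted, 52.7 CPM in non-implanted cells), Tyms (12.3 and 29.5), Tk1 (11.0 and 26.8), Rrm1 (19.6 and 36.6), Mcm7 (14.7 and 32.2), Mcm6 (17.2 and 35.7) and Mcm4 (6.75 and 16.1). All 4 nucleotide synthesis members were thus among them. Pcna had 34.4 CPM in implanted and 46.5 CPM in non-implanted cells, Mcm3 32.5 and 34.8 CPM, and Mcm2 12.9 and 11.6 CPM, the 1 member tested with a log2 ratio above 0 (0.11).

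Among G2/M members of the macrophage-like class, Nusap1, a spindle microtubule protein, had the lowest log2 ratio at -2.13, with 9.82 CPM in implanted and 59.9 CPM in non-implanted cells. Plk1 (3.68 and 29.5 CPM) and Cdc20 (3.07 and 26.8 CPM), a mitotic kinase and the activator of the anaphase-promoting complex, had log2 ratios of -1.99 and -1.98. Stmn1 had 92.0 CPM in implanted and 261 CPM in non-implanted cells, Mki67 47.3 and 164 CPM, Top2a 36.8 and 126 CPM, Ube2c 26.4 and 119 CPM and Birc5 22.1 and 76.0 CPM. The smallest difference was that of Spc25, a subunit of the NDC80 kinetochore complex, at -0.68. The 25 log2 ratios lay between -2.13 and -0.68, and the counting intervals of the libraries overlapped neither for the S phase nor for the G2/M sum. With the same weight for every cell, 21 members were past 1.5-fold lower and none higher, where 11.5% of all genes tested were lower and 14.2% higher, and Mcm4, Mcm7, Ccna2 and Aurkb changed sign.

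**Figure D5:**
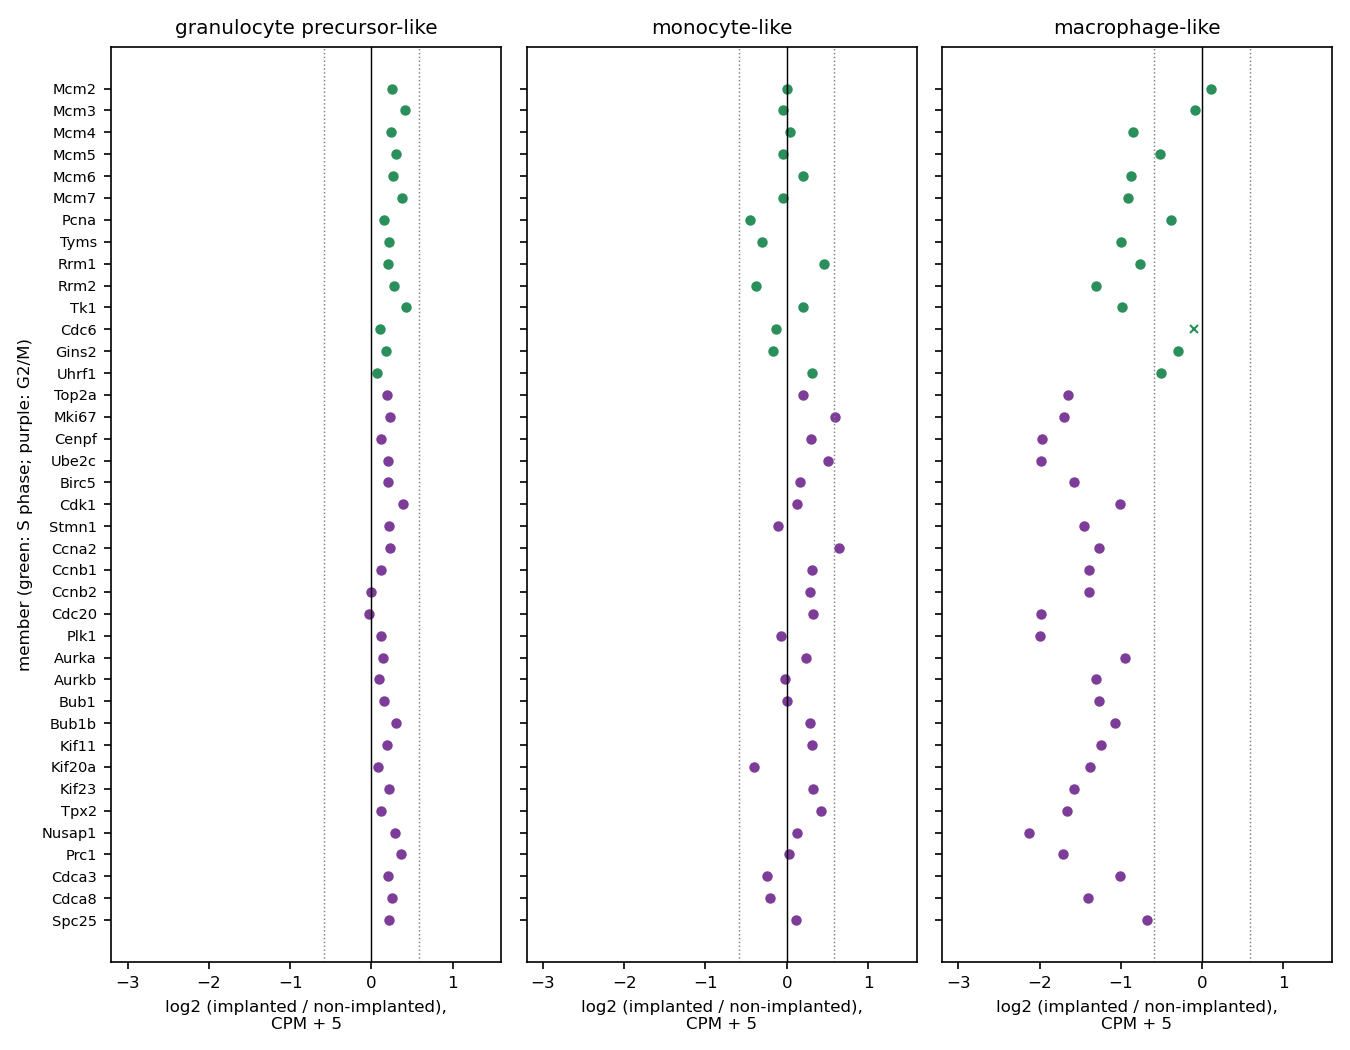
Log2 ratio of the level (CPM plus 5) in implanted over non-implanted cells for each of the 39 members in 3 classes; green points are S phase and purple points G2/M members, a cross marks a member with fewer than 20 UMIs, and dotted lines mark 1.5-fold. The members lie between -0.03 and 0.43 in granulocyte precursor-like cells, on both sides of 0 in monocyte-like cells, and all 25 G2/M members lie left of the lower dotted line in macrophage-like cells.

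Several measures moved with the macrophage-like difference. Few cells held the G2/M UMIs: 5 cells held 60.3% of the 682 UMIs in implanted cells and 41.2% of the 1616 UMIs in non-implanted cells. Markers of granulocyte precursors, all 18 of which had UMIs in the class in both libraries, summed to 14502 CPM in implanted and 34678 CPM in non-implanted macrophage-like cells. Camp (4988 CPM in implanted and 13432 CPM in non-implanted cells) and Ngp (4610 and 11588 CPM) made most of these sums. Of the 18 markers 12 were lower and 6 higher in implanted cells, and Elane was one of the higher ones, with 54.6 and 7.15 CPM, where 1 cell held 61.8% of its implanted UMIs. The cycling cells carried a median of 3.46% of their UMIs from these markers in implanted cells and 3.08% in non-implanted cells, against 0.163% and 0.136% in the other macrophage-like cells. Over 2% were 8 of 13 implanted and 12 of 24 non-implanted cycling cells, of which 1 and 3 were marked as likely doublets. Their part in the result was not tested, but the values without them are given. Without cells over 2%, a limit set after seeing the data, the S phase members summed to 177 CPM in implanted and 288 CPM in non-implanted cells (ratio 0.62, 0.51 to 0.75) and the G2/M members to 162 and 920 CPM (ratio 0.18, 0.15 to 0.21). The cycling shares were then 5 of 147 (3.40%) and 12 of 114 cells (10.5%), a difference of -7.12 points (-14.4 to -0.962). In these cells 18 of 24 members tested were past 1.5-fold lower and none higher, where 12.2% of all 8575 genes tested were lower and 11.7% higher. Rrm2 (6 UMIs in implanted and 8 in non-implanted cells) and Tyms (6 and 12) were then too low to be tested, while Rrm1 and Tk1 stayed past the fold, with log2 ratios of -1.14 and -0.90.

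Cluster 20 of the macrophage-like class, led by Mmp12, Spp1 and Gpnmb, had 64 implanted and 3 non-implanted cells. Its implanted cells had 150 CPM of S phase and 345 CPM of G2/M members. Without it the class had 275 CPM of S phase members in implanted and 386 CPM in non-implanted cells and 475 and 1462 CPM of G2/M members, a G2/M log2 ratio of -1.62. Clusters 11 and 12, led by C1q genes, had G2/M levels of 426 CPM in implanted and 1385 CPM in non-implanted cells and of 549 and 1613 CPM. The summed G2/M level thus was lower in implanted cells of both larger clusters, but few of their cells were cycling. In cluster 11 these were 2 of 29 implanted and 7 of 36 non-implanted thinned cells, a difference of -12.5 points (-28.9 to 5.37). Most cells of cluster 11, 75 of 104 implanted and 54 of 90 non-implanted, were under the thinning depth and left out. Of its cycling cells 0 implanted and 2 non-implanted ones were marked as likely doublets. In cluster 12 the cycling cells were 8 of 74 and 17 of 88 cells, a difference of -8.51 points (-19.3 to 2.91). Both intervals included 0.

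The same limit on precursor markers touched the monocyte-like class, where all 18 markers had UMIs and summed to 21818 CPM in implanted and 25236 CPM in non-implanted cells. Over it were 9 of 26 implanted and 10 of 20 non-implanted cycling cells. Without cells over 2% the S phase members summed to 211 CPM in implanted and 222 CPM in non-implanted cells (ratio 0.95, 0.83 to 1.10) and the G2/M members to 608 and 385 CPM (ratio 1.58, 1.43 to 1.74). Then 8 of 22 G2/M members were past 1.5-fold higher, and of 13 S phase members Tk1 was higher and Pcna lower, where 3.23% of all 9441 genes tested were higher and 2.47% lower. The cycling shares were 17 of 286 (5.94%) and 10 of 252 cells (3.97%), a difference of 1.98 points (-1.89 to 5.79).

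Cell cycle genes outside the members gave the following counts for the same comparisons. In macrophage-like cells 16 of 47 other S phase genes and 45 of 56 other G2/M genes were past 1.5-fold lower and none higher. Of all 9350 genes tested in this class 8.59% were lower and 11.7% higher. Aspm, a spindle pole protein, had 1 UMI in implanted and 30 UMIs in non-implanted cells (0.614 and 26.8 CPM), and Hmmr had 2.45 and 31.3 CPM. Clspn and Rfc4, which act at replication forks, had log2 ratios of -1.35 and -1.08, and Gins1 and Rfc2 had log2 ratios of 0.27 and 0.30. Among regulators of entry and exit 10 of 39 were lower and 2 higher: E2f8 and E2f7, the atypical E2F repressors, had log2 ratios of -1.66 and -1.56, and Wee1, the inhibitory kinase of Cdk1, and Mdm2, the p53 ubiquitin ligase, had 1.33 and 1.28. In precursor-like cells none of 60 other S phase, 78 other G2/M and 40 regulator genes passed 1.5-fold, with E2f7 at 0.50 and Ran at -0.44 as the extremes of the regulator and G2/M lists. There 0.828% of all genes tested were higher and 0.167% lower. In monocyte-like cells 4 other S phase genes were higher and 3 lower of 57, with Cdc45 at 1.05 (25 and 5 UMIs) and Pold1 at -0.67. Of all 9929 genes tested in that class 2.59% were higher and 1.94% lower.

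Cycling precursor-like cells differed from the other cells of the class in many genes besides the members. Their median depth was 12970 UMIs against 5719 UMIs of the other cells in the implanted library, and 13369 against 6370 UMIs in the non-implanted library. Of 9491 genes with at least 50 UMIs and outside the members, 23.2% had a higher and 6.93% a lower level by at least 1.5-fold in cycling cells of both libraries. The other S phase genes were higher in 59 of 59 cases and the other G2/M genes in 75 of 77. The genes with the highest ratios were the linker histone gene Hist1h1b, 2810417H13Rik, H2afx, Tuba1b, Tubb5, Smc2, Spc24, Dut, Prtn3 and Hist1h2ae. Hist1h1b had 566 CPM in cycling and 1.96 CPM in other cells of the implanted library, and 475 and 3.71 CPM in the non-implanted library. Prtn3, a primary granule protease, had 1671 and 82.0 CPM in implanted cells and 1081 and 5.02 CPM in non-implanted cells, and 1 implanted cell held 89.0% of the UMIs of the other cells.

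The lowest ratios were those of Mmp8, Retnlg, Mmp9, Acvrl1 and S100a6, of which the matrix metalloproteinase genes belong to the late granules. Mmp8 had 33.4 CPM in cycling and 987 CPM in other cells of the implanted library, and 70.5 and 1002 CPM in the non-implanted library. Retnlg had 389 and 3465 CPM and 402 and 3417 CPM. Camp, the cathelicidin gene of secondary granules, differed little, with 61345 and 48759 CPM in implanted cells and 64024 and 51221 CPM in non-implanted cells. Of 39 regulators 21 were higher and 6 lower in cycling cells in both libraries. The cells were called from the members and lie in other clusters than the rest, so these values describe the stages that cycle and are no test.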

How the data were processed

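Single cells of 1 implanted and 1 non-implanted library were measured by 10x single-cell RNA-seq. The deposited values are raw UMI counts per gene and cell, not normalized. Per the file headers the software was Cell Ranger 3.0.1. Seurat and the build mm10 (GRCm38) are named, without a role, in the submitters' processing notes. From the deposited counts, 107 spike-in and transgene rows were left out, and cells with at least 200 genes and at most 10% mitochondrial UMIs were kept (82 implanted and 59 non-implanted barcodes were left out). The libraries held 19593003 and 21577033 UMIs.

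Clusters came from 2000 variable genes without 311 cell cycle and histone genes, 30 principal components, 15 neighbours and Leiden resolution 1 (leidenalg 0.10.2 in scanpy 1.11.5, with scikit-learn 1.9.0). Sums and intervals used scipy 1.17.1 and pandas 2.3.3 with numpy 2.4.6 under Python 3.11.15. The clusters were named from fixed marker lists by a score settled after the clusters were seen. Doublets were kept; removing the cells marked by Scrublet (84 implanted, 102 non-implanted) was an alternative. UMIs were summed per class and library and scaled to CPM. Intervals at 95% were exact Poisson for levels, exact conditional for ratios, Clopper-Pearson for shares and Newcombe for differences of shares. Single genes were compared as log2 ratios of CPM plus 5 where both libraries together held at least 20 UMIs. Members given in detail were the 3 S phase and 5 G2/M members with the most UMIs in a class and those past 1.5-fold. Among other genes, those named were the 2 highest and 2 lowest of a list, and the 10 highest and 5 lowest of cycling over other precursor-like cells with at least 50 UMIs; further genes named were chosen after their values were seen. The members and lists were chosen with earlier results of these data known. The computation was tested on simulated data. Promoter sequences are from RefSeq (GRCm38.p6).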

Additional observations from a re-analysis of the deposited data

Results flagged for a closer look

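The summed G2/M members differed in direction between classes. Their log2 ratio of implanted over non-implanted cells was -1.79 in macrophage-like cells, against 0.21 in granulocyte precursor-like and 0.23 in monocyte-like cells. The summed S phase members had a log2 ratio of -0.80 in macrophage-like cells, against 0.30 in granulocyte precursor-like cells. Each of these counting intervals lay on 1 side of 0, but with 1 library per group the difference between the classes was not tested.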

How the results depend on the processing

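No paired analysis was possible because each group had 1 library, and for the same reason no library could be left out. All values are log2 ratios of implanted over non-implanted cells unless named otherwise, and the causes of the changes were not tested. In granulocyte precursor-like cells the S phase sum was 0.22 with a TMM-type factor and 0.40 at Leiden resolution 0.5, and the G2/M sum 0.13 and 0.32, and 0.10 at resolution 2. The difference in cycling share was 7.77 points at resolution 0.5 and -2.04 at resolution 2. The S over G2/M ratio of UMIs was 0.250 in implanted and 0.226 in non-implanted cells at resolution 2, and 0.273 and 0.257 without Stmn1. In neutrophil-like cells the S phase and G2/M sums were 0.31 and 0.22 with at most 5% mitochondrial UMIs, and the G2/M sum was -0.36 at resolution 2. There 1 member was past 1.5-fold higher with a pseudocount of 1 CPM, with at most 5% mitochondrial UMIs and at resolution 0.5, and 1 lower with a pseudocount of 1 CPM and with the same weight for every cell. The shares of all genes past the fold were not computed under these settings. The non-implanted S over G2/M ratio was 0.238 with at most 5% mitochondrial UMIs, 0.226 at resolution 0.5 and 0.217 at resolution 2, and the difference in cycling share was -1.05 points with at least 2 UMIs. In monocyte-like cells the G2/M sum was 0.42 with the same weight for every cell, the members past 1.5-fold higher were 5 with that weight and 0 with a pseudocount of 20 CPM, and 1 was lower with a pseudocount of 1 CPM. With that weight 3.48% of all genes tested were higher and 2.8% lower, and the shares at these pseudocounts were not computed. Without Stmn1 their S over G2/M ratio was 0.387 in implanted and 0.505 in non-implanted cells.

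In macrophage-like cells the S phase sum was -0.39 with the same weight for every cell, -0.56 with at most 5% mitochondrial UMIs and -0.49 without the cluster of 1 library. The G2/M sum was -1.11, -1.47 and -1.62 under these settings, -1.96 with the cell cycle genes left in the clustering and -1.43 at resolution 0.5. With at least 50 UMIs 21 members were past 1.5-fold lower, and with the same weight for every cell also 21, where Mcm4 was at 0.0027, Mcm7 at 0.24, Ccna2 at 0.046 and Aurkb at 0.26. With that weight 11.5% of all genes tested were lower and 14.2% higher. The share of all genes at 50 UMIs was not computed, so the count at that limit cannot be set against the main one. The implanted S over G2/M ratio was 0.614 with doublets removed and 0.677 without Stmn1. The non-implanted ratio was 0.297 with at most 5% mitochondrial UMIs, 0.236 with the cell cycle genes left in, 0.304 at resolution 0.5 and 0.324 without Stmn1. The difference in cycling share was -2.31 points without thinning. In the window from 100 bases before to 50 after the start, 5 of 14 S phase promoters (35.7%) held TTTNNCGC, against 2.79% of all 32851. There TTTGAA stood in 17 of 21 G2/M promoters (81.0%), against 8.01% of all. Leaving out cells rich in precursor markers, an alternative chosen after seeing the data, gave a G2/M sum of -2.51 and 18 members lower in macrophage-like cells, with S over G2/M ratios of 1.10 in implanted and 0.313 in non-implanted cells, and Aurka at 0.21. Of all genes tested in these macrophage-like cells 12.2% were lower and 11.7% higher. In monocyte-like cells leaving them out gave a G2/M sum of 0.66, 9 members higher and 1 lower, and a non-implanted S over G2/M ratio of 0.575. There 3.23% of all genes tested were higher and 2.47% lower. Of the values that answer a comparison, 259 stayed within their limits under the alternatives and 55 did not. The further values were the cycling shares of single libraries and the ratios of single members past the fold. Of these 420 stayed, 92 moved outside their limits, and 5 whose interval excluded 0 changed sign. Few cells held the member UMIs of the macrophage-like and monocyte-like classes, which limits these comparisons beside the single library per group.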

Other observations

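Small classes held cycle transcripts in few cells. Osteoclast-like cells had 1535 CPM of G2/M members in 12 implanted and 3635 CPM in 32 non-implanted cells, and 5 cells held 95.4% and 66.3% of these UMIs. Megakaryocyte-like or platelet-like cells had 561 CPM in 27 implanted and 3359 CPM in 23 non-implanted cells, with 87.4% and 97.1% in 5 cells. Dendritic cell-like cells had 285 CPM of G2/M members in implanted and 89.7 CPM in non-implanted cells, and 1 implanted cell held 65.9% of the UMIs.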
